A study of Mus musculus with 6 samples.

Results

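The ERBB receptors and the ligands of the epidermal growth factor (EGF) family are described here in 3 control (WT) and 3 Dnmt3a knockout (KO) ectopic endometrial lesions of the mouse. The 10 members were listed by symbol: the 4 receptors Egfr, Erbb2, Erbb3 and Erbb4, and the 6 ligands Egf, Areg, Ereg, Hbegf, Tgfa and Btc. All 10 were found among the 56884 genes of the count table, and 9 had enough counts to be tested. They were listed as a gene family and not by a threshold on measured values, but with earlier results of these data known.

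ERBB receptors are tyrosine kinases that dimerize when an EGF-family ligand binds, and the dimers signal to the RAS-ERK and PI3K-AKT pathways. Erbb2 binds no known ligand and acts as a partner of the others, while the kinase of Erbb3 is weak. The ligands are made as membrane-anchored precursors that metalloproteases of the ADAM family release, and in the uterus the family is known from implantation and from the response of the epithelium to estrogen.

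The libraries were made from whole lesions by poly(A) selection, so every cell type of the piece entered the counts. Uterine tissue of a donor was placed in the peritoneal cavity of a wild-type C57BL/6J recipient that carried an estrogen pellet, and donors and recipients were 8 weeks old. WT donors were Dnmt3a f/f without Cre. KO donors were Dnmt3a f/f:PR Cre/+, in which Cre is made in cells with progesterone receptor, so donor cells without that receptor and all cells of the host keep Dnmt3a, which encodes a DNA methyltransferase. The sample labels give 4 weeks and injected fragments, whereas the methods of the study give day 21 and a fragment sutured to the mesentery. A single lesion gave 1 library, with 45370342 to 57239184 counts in total. Between 89.2% and 90.6% of the counts from 1 to 20 were even numbers, the pattern that counting both mates of a read pair gives, so a low count of a ligand stands for fewer fragments than it shows.

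Dnmt3a was at 52.7, 43.9 and 51.7 CPM (counts scaled to library size, with TMM factors) in WT replicates 1, 2 and 3, against 30.3, 33.5 and 36.2 CPM in the KO replicates. Every KO lesion was below the WT range (log2 fold change -0.57, SE 0.14; edgeR quasi-likelihood, Benjamini-Hochberg adjusted p = 0.321). All 10 markers of endometrial epithelium and all 9 of endometrial stroma passed the filter on low counts. Some libraries stood apart in transcripts of other cell types. The 9 skeletal muscle markers (among them Acta1, Ckm and Myh4) summed to 30339 and 30812 CPM in WT replicates 1 and 3 and to at most 15.5 CPM in the other 4 lesions. The 7 neutrophil markers (S100a8, S100a9, Csf3r and others) summed to 9707 CPM in WT replicate 2 and to 30.4 to 473 CPM in the others. The 5 pancreatic acinar markers reached 2980 CPM in WT replicate 3 and at most 0.397 CPM elsewhere, and KO replicate 3 had the highest sums of the stromal and adipocyte markers.

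Among the members, the receptor Erbb2 had a mean 2.02-fold higher in KO lesions in the fitted model, and the ligand Egf was lower by 5.29 on the log2 scale, but neither difference passed adjustment over all genes. Of the 9 members tested, 4 had a higher and 5 a lower estimate in KO lesions, and their median was -0.18 on the log2 scale, beside 0.01 over all 18177 genes tested. At an adjusted p under 0.05, 0 of the 9 members were called by the edgeR quasi-likelihood fit, where 0.00550% of all genes tested were called (1 gene). At an unadjusted p under 0.05, 1 member was higher (Erbb2) and 1 lower (Egf), where 6.55% of all genes were higher and 8.16% lower. The 3 and 3 values did not overlap, KO higher, for 0 members and 10.7% of genes, and, KO lower, for 1 member (Egf) and 8.74% of genes. With 9 members tested, 1 gene in a direction is near these background shares. As an alternative, the Wald test of DESeq2 gave 1 member (Egf) an adjusted p under 0.05, beside 6.26% of the genes to which it gave an adjusted p. The study's methods name 3 donor mice of each genotype for these lesions. The labels do not say which animals the replicates came from, so these p-values measure the spread between the samples.

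**Figure D1:**
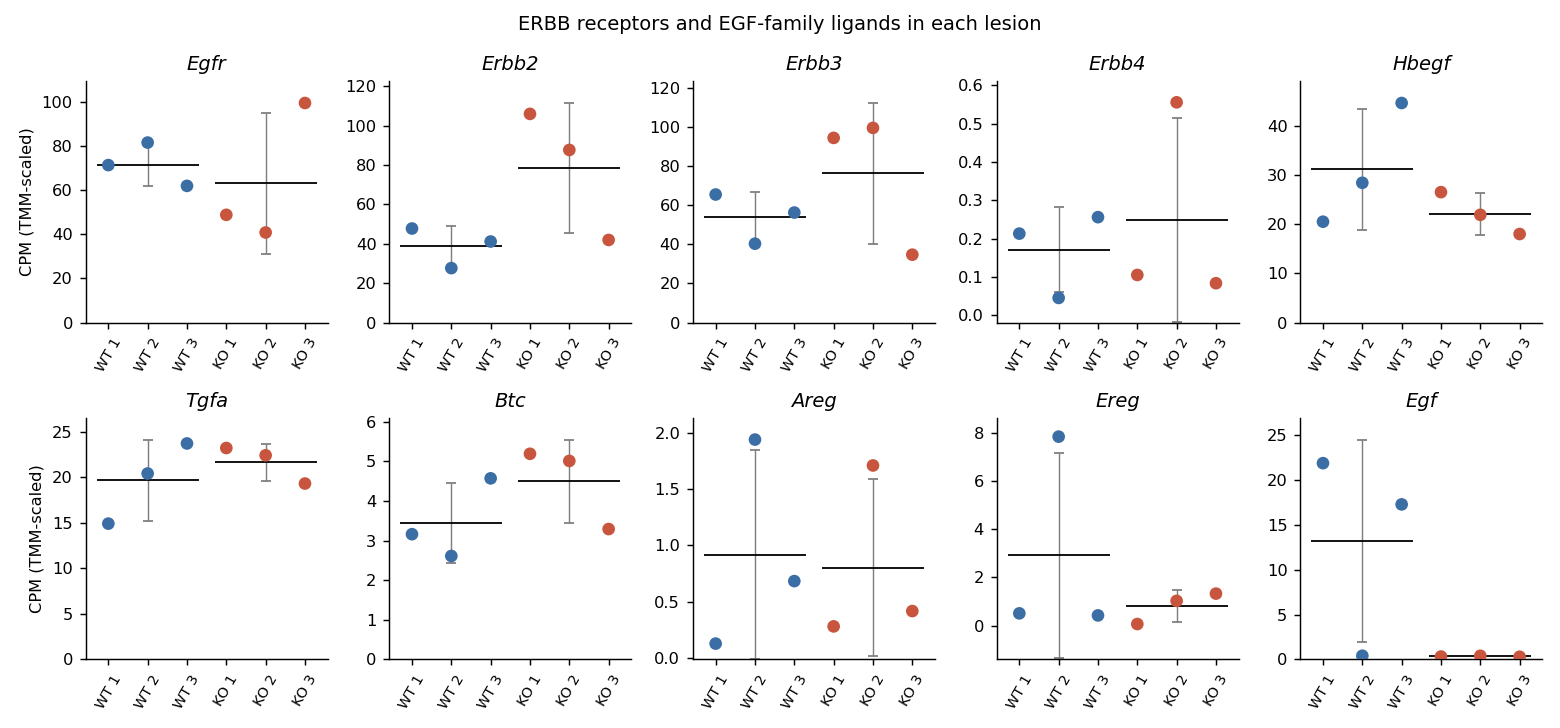
Level of each member in each lesion, in CPM after TMM scaling on linear axes with a scale of its own per panel. Blue points are WT and red points KO lesions, the horizontal line is the group mean and the grey bar its SD (n = 3), which reaches below 0 for Areg, Ereg and Erbb4. The only panel in which the groups do not overlap is that of Egf, where WT replicate 2 lies beside the KO lesions.

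Because Dnmt3a adds methyl groups to cytosines in CG dinucleotides, the CG content of the members' promoters is given as background; methylation was not measured in these libraries. RefSeq promoter windows of 250 bases before the transcription start (GRCm38.p6) were found for 7 of the 10 members. The window of Egfr held 11 CG, that of Erbb2 16, Erbb4 12, Areg 15, Tgfa 19 and Btc 4, beside a median of 6 over 32851 windows. Egf had 2 annotated starts. The window of its first start held 0 CG, as 7.87% of all windows did, and that of an internal start held 15. CG reads the same on both strands. The 3 windows printed 5′ to 3′ with CG in capitals are those of the members with the lowest unadjusted p in each direction, Egf and Erbb2, and that of Egfr, the receptor of most of the ligands.
Egf, first start (chr3:129755323-129755572, minus strand): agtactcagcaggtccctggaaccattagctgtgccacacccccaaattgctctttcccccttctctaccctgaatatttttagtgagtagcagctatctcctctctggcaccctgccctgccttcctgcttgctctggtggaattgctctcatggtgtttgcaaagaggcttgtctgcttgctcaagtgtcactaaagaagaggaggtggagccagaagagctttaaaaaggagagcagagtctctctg
Erbb2 (chr11:98412234-98412483, plus strand): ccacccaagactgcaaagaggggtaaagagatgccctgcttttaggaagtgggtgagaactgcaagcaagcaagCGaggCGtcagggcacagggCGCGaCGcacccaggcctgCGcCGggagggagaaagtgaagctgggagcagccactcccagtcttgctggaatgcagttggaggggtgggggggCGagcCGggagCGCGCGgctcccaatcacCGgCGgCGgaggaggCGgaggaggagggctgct
Egfr (chr11:16751953-16752202, plus strand): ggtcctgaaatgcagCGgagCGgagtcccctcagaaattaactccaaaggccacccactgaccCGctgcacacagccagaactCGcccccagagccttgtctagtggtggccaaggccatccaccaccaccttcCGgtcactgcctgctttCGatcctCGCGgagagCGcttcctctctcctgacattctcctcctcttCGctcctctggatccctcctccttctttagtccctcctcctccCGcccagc
In GENCODE M21 the Egf window lies wholly within an exon of 6330410L21Rik, a gene on the opposite strand, and the last 14 bases of the Erbb2 window are 5′ UTR of an annotated Erbb2 transcript. The Egfr window ends where the gene starts.

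Erbb2 (ENSMUSG00000062312.6), the receptor that acts as a shared dimerization partner, was at 47.8, 27.7 and 41.2 CPM in WT replicates 1, 2 and 3. In the KO lesions it was at 106, 87.7 and 42.0 CPM. KO replicates 1 and 2 lay above every WT lesion, whereas KO replicate 3 lay within the WT range. WT lesions averaged 38.9 ± 10.2 CPM (SD, n = 3) and KO lesions 78.4 ± 32.8 CPM (SD, n = 3), which gave a log2 fold change of 1.01 (SE 0.38, unadjusted p = 0.0382, edgeR quasi-likelihood adjusted p = 0.332). The exact two-sided permutation test of the means gave p = 0.2, where 3 lesions against 3 cannot go below 0.1. With 1 lesion left out at a time the log2 fold change lay between 0.73 without KO replicate 1 and 1.31 without KO replicate 3, and the unadjusted p was over 0.05 without WT replicate 2, WT replicate 3, KO replicate 1 or KO replicate 2.

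The gene lies on chromosome 11 from 98412470 to 98437716 (GRCm38, plus strand). Its exons share 9 bases with Mien1, a neighbour on the opposite strand, which is 0.2% of its exon bases. Mien1 had 2083, 1880 and 2092 counts in WT and 3859, 3655 and 2312 counts in KO lesions (log2 fold change 0.52, edgeR quasi-likelihood adjusted p = 0.328), and was chosen for mention after its values were seen. In both genes KO replicates 1 and 2 were the highest lesions.

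Erbb3 (ENSMUSG00000018166.9, chromosome 10), which signals mainly through its partners and recruits PI3K, was at 65.4, 40.3 and 56.2 CPM in WT lesions. It was at 94.3, 99.4 and 34.7 CPM in KO replicates 1, 2 and 3. KO replicates 1 and 2 were the highest of the 6 lesions and KO replicate 3 the lowest, so the groups overlapped on both sides. The log2 fold change was 0.50 (SE 0.42, edgeR quasi-likelihood adjusted p = 0.576), and with 1 lesion left out it ran from 0.26 without KO replicate 2 to 0.84 without KO replicate 3. It was 0.31 without KO replicate 1 and 0.32 without WT replicate 2. At 0.84 the unadjusted p was 0.0143 and the edgeR quasi-likelihood adjusted p 0.153.

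Erbb2 and Erbb3 are made mostly by epithelial cells in many organs, and the levels of the epithelial markers are therefore given beside them. The 10 epithelial markers (Epcam, Krt8, Krt18 and others) summed to 2089, 1980 and 3005 CPM in WT lesions. In KO lesions they summed to 3753, 3369 and 1962 CPM. The lesions highest in the summed markers, in Erbb2 and in Erbb3 were thus KO replicates 1 and 2, and KO replicate 3 was the lowest in the sum and in Erbb3. This did not hold for every marker. Cldn4 was at 69.9, 114 and 110 CPM in WT lesions, against 41.1, 26.3 and 71.9 CPM in KO lesions, so that KO replicates 1 and 2 were the lowest, and they were also the lowest in Wnt7a. Krt19 was highest in WT replicate 3. These 3 markers were picked out after their values were seen. Of the 10 markers, 7 had a higher mean in KO lesions, for 0 the groups did not overlap, and 0 were at 0 in all KO lesions. In bulk tissue, fewer cells of a type and less RNA per cell cannot be told apart.

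Per 1000 CPM of the epithelial markers, Erbb2 was at 22.9, 14.0 and 13.7 CPM in WT lesions, against 28.1, 26.0 and 21.4 CPM in KO lesions. The ratio of KO to WT means was then 1.49, WT replicate 1 lay within the KO range, and the exact two-sided permutation test gave p = 0.2. Without WT replicate 1 the ratio was 1.82, and without KO replicate 3 it was also above 1.49. It was below 1.49 without WT replicate 2, WT replicate 3, KO replicate 1 or KO replicate 2. Erbb3 was at 31.3, 20.4 and 18.7 CPM in WT lesions, against 25.1, 29.5 and 17.7 CPM in KO lesions on the same scale. Its ratio of means was 1.03 (exact permutation p = 1.00). The pairing of genes with marker lists was chosen after their values were seen, and the part of the epithelium in the Erbb2 difference was not tested further.

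Egfr (ENSMUSG00000020122.17, chromosome 11), the receptor to which Egf, Areg and Tgfa bind, was at 71.3, 81.5 and 61.9 CPM in WT lesions. It was at 48.8, 40.8 and 99.4 CPM in KO replicates 1, 2 and 3. Both KO replicates 1 and 2 lay below every WT lesion and KO replicate 3 above every one of them. WT lesions averaged 71.6 ± 9.80 CPM (SD, n = 3) and KO lesions 63.0 ± 31.8 CPM (SD, n = 3), which gave a log2 fold change of -0.18 (SE 0.35, edgeR quasi-likelihood adjusted p = 0.816). Without KO replicate 3 it was -0.67 (unadjusted p = 0.0126, adjusted p = 0.149), and without KO replicate 2 it was 0.05.

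The summed level of stromal markers set the KO lesions apart as Egfr did, but single markers differed. The 9 markers (Hoxa10, Hoxa11, Pdgfra and others) summed to 10709, 9020 and 9441 CPM in WT lesions, against 5218, 3695 and 12224 CPM in KO lesions. KO replicates 1 and 2 were the lowest and KO replicate 3 the highest in the sum and in Egfr. Most of the sum came from Col1a1, Col1a2 and Dcn. Of the 9 markers, 7 had a lower mean in KO lesions, and Hoxa10 and Hoxa11 a higher one. Hoxa11 was at 12.3, 12.5 and 18.6 CPM in WT lesions, against 39.6, 19.5 and 30.8 CPM in KO lesions, with no overlap, and KO replicate 1 was the highest lesion in both Hox genes. Pdgfrb was at 93.1, 107 and 121 CPM in WT lesions, against 98.1, 55.5 and 133 CPM in KO lesions, so that KO replicate 1 lay above WT replicate 1. Col1a1, Col1a2, Dcn, Pdgfrb and Hoxa11 were picked out after their values were seen. Per 1000 CPM of the stromal markers, Egfr was at 6.66, 9.03 and 6.55 CPM in WT lesions, against 9.35, 11.0 and 8.13 CPM in KO lesions. The ratio of KO to WT means was 1.28 with overlapping groups (exact two-sided permutation p = 0.2).

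**Figure D2:**
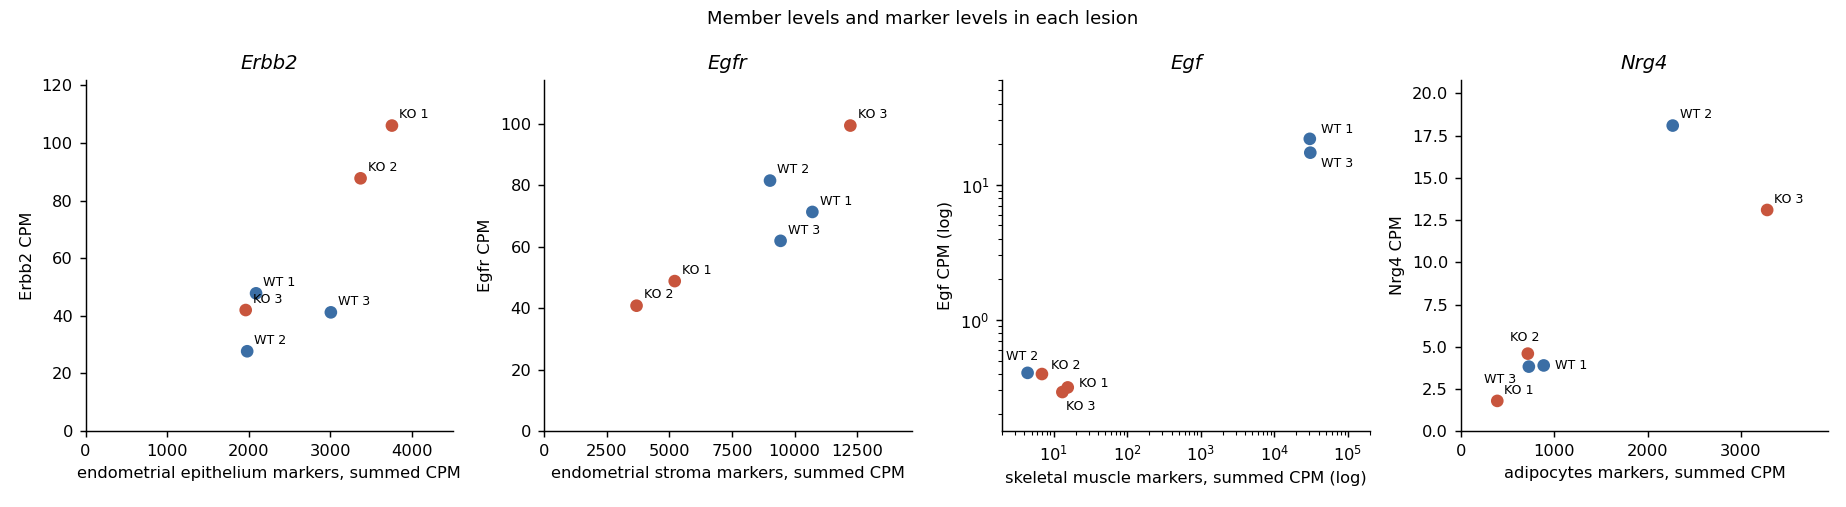
CPM of Erbb2, Egfr, Egf and Nrg4 in each lesion against the summed CPM of a marker list in the same lesion, with blue points for WT and red points for KO lesions. Axes of the Egf panel are logarithmic and the others linear. KO replicates 1 and 2 are highest in Erbb2 and summed epithelial markers and lowest in Egfr and summed stromal markers, and WT replicates 1 and 3 alone are high in Egf and skeletal muscle markers.

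Erbb4 (ENSMUSG00000062209.16, chromosome 1), a receptor of neuregulins and Btc, was close to absent. Its counts were 10, 2 and 12 in WT and 6, 28 and 4 in KO lesions, with KO replicate 2 the highest at 0.556 CPM, and the gene did not pass the filter on low counts. A difference of Erbb4 between the groups was not detectable at this depth.

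Compared between genes per length, as TPM (counts per kilobase of exon, scaled to the same total in every library), the receptors Erbb2, Erbb3 and Egfr led the members with means over the 6 lesions of 37.0, 35.2 and 19.1 TPM. Hbegf followed at 17.4, Tgfa at 10.3, Btc at 2.85, Areg at 2.27, Egf at 1.81, Ereg at 1.39 and Erbb4 at 0.0559 TPM. Neighbours in this order overlapped over the 6 lesions, except that every value of Hbegf (12.9 to 27.0 TPM) lay above every value of Tgfa (6.99 to 12.2 TPM), and every value of Tgfa above every value of Btc (1.71 to 3.91 TPM). The order was not the same in both groups. In WT lesions Erbb3 (26.8 TPM) came before Erbb2 (22.3), Hbegf (19.1) and Egfr (18.8), and Egf was the 6th member, whereas in KO lesions Erbb2 (51.8 TPM) came first and Egf was the 9th. With the longest transcript of each gene as its length, Hbegf (22.9 TPM) stood above Egfr (16.6), and every value of Hbegf was still above every value of Tgfa, and every value of Tgfa above every value of Btc.

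The 4 receptors together held 80.2, 56.7 and 66.7 TPM in WT and 135, 131 and 79.1 TPM in KO lesions. TPM carry no TMM factors, so they also move with the other transcripts of a lesion. Skeletal muscle transcripts in WT replicates 1 and 3 are among these and lower the TPM of the rest. KO replicate 3 lay within the WT range. Egfr made up 23.9%, 37.4% and 24.0% of that sum in WT lesions and 10.7%, 9.74% and 38.8% in KO lesions. The share of Erbb2 was 34.8%, 27.7% and 34.8% in WT and 50.3%, 45.5% and 35.6% in KO lesions. In KO replicates 1 and 2 the receptor mixture thus held more Erbb2 and less Egfr than in any WT lesion, and in KO replicate 3 the Egfr share was above and the Erbb2 share only just above the WT values. The 6 ligands summed to 28.6, 38.7 and 47.2 TPM in WT and to 35.1, 38.1 and 28.4 TPM in KO lesions, with overlapping groups.

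**Figure D3:**
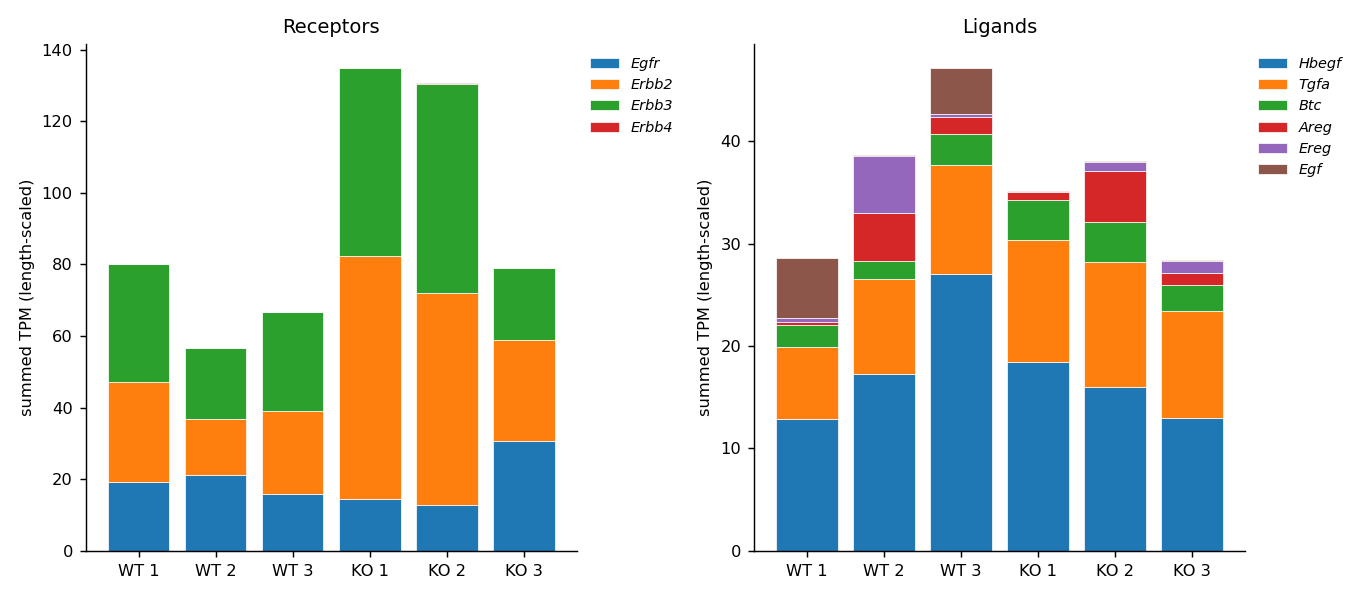
Summed TPM of the receptors (left) and of the ligands (right) in each lesion on linear axes from 0, with each colour 1 member. The receptor sum is 135 and 131 TPM in KO replicates 1 and 2 and 56.7 to 80.2 TPM in the other 4 lesions, and Egf is visible among the ligands only in WT replicates 1 and 3.

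Hbegf (ENSMUSG00000024486.7), a ligand of Egfr and Erbb4 known for its role at the implanting embryo, was the ligand with the highest level. It was at 20.5, 28.4 and 44.6 CPM in WT lesions, against 26.5, 21.9 and 18.0 CPM in KO lesions. WT replicates 2 and 3 were above every KO lesion, and WT replicate 1 lay among them. The log2 fold change was -0.49 (SE 0.32, edgeR quasi-likelihood adjusted p = 0.462). It was -0.17 without WT replicate 3 and -0.72 without WT replicate 1, where the unadjusted p was 0.048 and the adjusted p 0.442. Hbegf made up 44.8% to 57.3% of the ligand TPM in WT and 41.9% to 52.3% in KO lesions.

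Tgfa (ENSMUSG00000029999.15, chromosome 6), a ligand of Egfr made by many epithelia, was at 14.9, 20.4 and 23.7 CPM in WT lesions, against 23.2, 22.4 and 19.3 CPM in KO lesions. All KO values lay within the WT range, and the log2 fold change was 0.14 (SE 0.20, edgeR quasi-likelihood adjusted p = 0.749). Its share of the ligand TPM was 22.7% to 24.4% in WT and 32.1% to 36.7% in KO lesions. The shares did not overlap, although the levels did, since a share also moves with the other ligands, and no test was made of them.

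Btc (ENSMUSG00000082361.7), which binds Egfr and Erbb4, was at 3.16, 2.61 and 4.57 CPM in WT lesions, against 5.19, 5.01 and 3.29 CPM in KO lesions. As for Erbb2, KO replicates 1 and 2 were the highest and KO replicate 3 lay within the WT range. The log2 fold change was 0.38 (SE 0.32, edgeR quasi-likelihood adjusted p = 0.569), and with 1 lesion left out it ran from 0.22 to 0.61. Per 1000 CPM of the epithelial markers Btc was at 1.32 to 1.52 CPM in WT lesions, against 1.38 to 1.68 CPM in KO lesions, with a ratio of KO to WT means of 1.04.

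Egf (ENSMUSG00000028017.8, chromosome 3), the founding ligand of the family, gave the largest difference among the members and the most uneven one. It was at 21.9, 0.405 and 17.3 CPM in WT replicates 1, 2 and 3. It was at 0.316, 0.397 and 0.292 CPM in KO lesions. WT replicates 1 and 3 were high, and WT replicate 2 exceeded the highest KO lesion by a margin that rests on 18 against 20 counts and on the scaling. With library totals as the only scaling, WT replicate 2 was at 0.397 CPM and the highest KO lesion at 0.417, so that the groups overlapped.

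The log2 fold change of Egf was -5.29 (SE 1.36, unadjusted p = 0.00814, edgeR quasi-likelihood adjusted p = 0.321). With WT replicates 1 and 3 removed and WT replicate 2 assumed to vary like the other lesions, it was -0.29 (SE 0.62, adjusted p = 0.851). Without WT replicate 2 it was -5.86 (SE 0.26, adjusted p = 0.00132), and DESeq2's Wald test over all 6 lesions gave an adjusted p of 1.24e-04. WT replicates 1 and 3, the lesions that carried the Egf signal, were those with skeletal muscle transcripts. The skeletal muscle markers summed to 30339, 4.41 and 30812 CPM in WT lesions, against 15.5, 6.91 and 13.1 CPM in KO lesions. All 9 of them had a lower mean in KO lesions, 2 were at 0 in all KO lesions, and Myh4, a fast myosin heavy chain, was at 0.0225 CPM in WT replicate 2. In the WT lesion with the least muscle transcripts, WT replicate 2, the level of Egf was close to that of the KO lesions. Per 1000 CPM of the muscle markers, Egf was at 0.723, 91.8 and 0.563 CPM in WT lesions, against 20.3, 57.5 and 22.2 CPM in KO lesions, with overlapping groups. The part of muscle tissue in the Egf difference was not tested. Egf shares 4.4% of its exon bases with 6330410L21Rik, which had 42, 0 and 22 counts in WT and 0 in every KO lesion.

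Areg and Ereg, ligands that estrogen, prostaglandins and inflammation are known to induce, lie 46.0 kb apart on chromosome 5, in a stretch of 375.5 kb that also holds Epgn and Btc. Areg (ENSMUSG00000029378.6) was at 0.128, 1.94 and 0.683 CPM in WT lesions, against 0.281, 1.71 and 0.417 CPM in KO lesions. Ereg (ENSMUSG00000029377.6) was at 0.512, 7.83 and 0.427 CPM in WT lesions, against 0.0702, 1.03 and 1.33 CPM in KO lesions. WT replicate 2 was the highest lesion for both, and KO replicate 2 came close to it for Areg but not for Ereg. The counts behind these values were low, from 6 to 86 for Areg and from 4 to 348 for Ereg.

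The log2 fold change of Areg was -0.19 (SE 1.07, edgeR quasi-likelihood adjusted p = 0.943). That of Ereg was -1.85 (SE 1.45, adjusted p = 0.545) and turned to 0.78 without WT replicate 2. WT replicate 2 was the lesion with 9707 CPM of neutrophil markers, of which 7 of 7 had a lower mean in KO lesions and 0 were at 0 in all KO lesions. For only 3 of the 7 did the groups not overlap. The neutrophil sums of WT replicates 1 and 3 were 473 and 213 CPM. Those of the KO lesions were 79.0, 30.4 and 170 CPM. KO replicate 2 had the lowest neutrophil sum and the next highest Areg level. The part of these cells in the levels of Areg and Ereg was not tested.

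**Figure D4:**
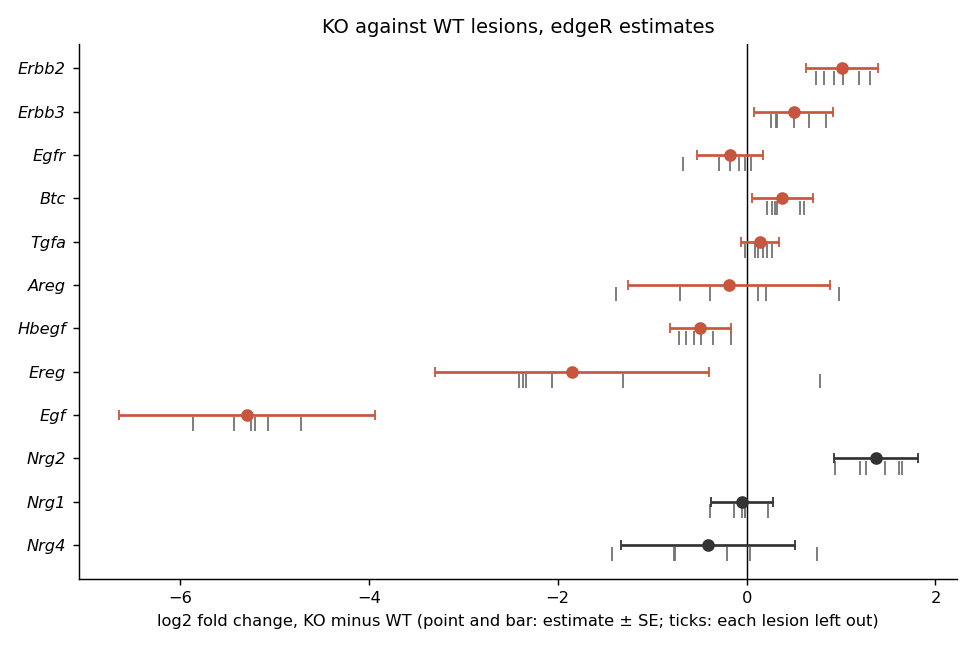
Log2 fold change of KO against WT lesions from edgeR for the 9 members tested (red) and the 3 neuregulins tested (black), as estimate ± SE, with grey ticks for the estimate with each lesion left out in turn. Egf lies at -5.29 with ticks from -5.86 to -4.72, and the ticks of Ereg, Areg, Egfr, Tgfa, Nrg1 and Nrg4 fall on both sides of 0.

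Of the 5 further ligands of the family, 3 were tested. Nrg2 (ENSMUSG00000060275.15), a neuregulin that binds Erbb3 and Erbb4, was at 1.37, 1.51 and 2.48 CPM in WT lesions, against 6.95, 3.95 and 2.90 CPM in KO lesions. Every KO lesion exceeded every WT lesion, KO replicate 1 by the most and KO replicate 3 by the least. The log2 fold change was 1.37 (SE 0.44, unadjusted p = 0.0201, edgeR quasi-likelihood adjusted p = 0.328), and with each lesion left out it lay between 0.94 and 1.65.

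Nrg1, the main neuregulin of mesenchyme and nerve, was at 18.6, 21.7 and 22.2 CPM in WT lesions, against 20.2, 11.6 and 28.5 CPM in KO lesions (log2 fold change -0.05, SE 0.33). KO replicate 2 was the lowest and KO replicate 3 the highest lesion, as for Egfr. Nrg4, a ligand of Erbb4 known as a product of adipose tissue, was at 3.89, 18.1 and 3.82 CPM in WT lesions, against 1.79, 4.59 and 13.1 CPM in KO lesions (log2 fold change -0.41, SE 0.92). WT replicate 2 and KO replicate 3 were the highest in Nrg4 and also in the 5 adipocyte markers (Adipoq, Plin1, Cidec and others), which summed to 888, 2269 and 729 CPM in WT lesions, against 391, 718 and 3280 CPM in KO lesions. The part of adipose tissue in the Nrg4 level was not tested. Epgn had 4, 6 and 4 counts in WT and 0, 0 and 8 counts in KO lesions, and Nrg3 had 0 counts in every lesion.

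Of the 73 genes in the pathway lists, including these further ligands, 71 were tested and 0 had an adjusted p under 0.05 in the edgeR quasi-likelihood fit. At an unadjusted p under 0.05, 4 were higher and 7 lower in KO lesions, beside 6.55% and 8.16% of all genes tested, and the 71 had a median of -0.12 on the log2 scale. The groups did not overlap for 4 genes with KO higher and for 10 with KO lower, beside 10.7% and 8.74% of all genes. By the Wald test of DESeq2, an adjusted p under 0.05 was reached by 4 of the 71, namely Sos2, Fos, Egr1 and Fosl1, each lower in KO lesions, beside 6.26% of all genes.

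The 10 genes of ligand shedding, among them Adam17, the protease that releases most EGF-family ligands, had 2 higher and 8 lower estimates with a median of -0.28. With 1 lesion left out the median ran from -0.56 without KO replicate 3 to -0.08 without WT replicate 2. At an unadjusted p under 0.05, 0 were higher and 0 lower. Adam17 was at 136, 192 and 158 CPM in WT lesions, against 155, 136 and 127 CPM in KO lesions, with overlapping groups (log2 fold change -0.22, SE 0.17); it is named for its role.

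The list of receptor inhibitors and turnover had 11 genes, of which 2 were higher and 0 lower at an unadjusted p under 0.05, beside 6.55% and 8.16% of all genes, with a median of 0.07. Both were members of the Lrig family of transmembrane proteins, of which Lrig1 restrains ERBB receptors. Lrig1 was at 78.9, 46.4 and 84.6 CPM in WT lesions, against 133, 127 and 93.2 CPM in KO lesions (log2 fold change 0.75, SE 0.27, edgeR quasi-likelihood adjusted p = 0.328). Lrig3 was at 13.4, 8.33 and 14.4 CPM in WT lesions, against 21.2, 18.8 and 16.2 CPM in KO lesions (log2 fold change 0.64, SE 0.25, adjusted p = 0.332). For both, the groups did not overlap, as for 10.7% of all genes with KO higher. KO replicates 1 and 2 were the highest, and WT replicate 2 was the lowest lesion, as for Erbb2.

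The 29 adaptors and kinases downstream of the receptors had a median of -0.04, with 1 gene higher and 3 lower at an unadjusted p under 0.05, near the 6.55% and 8.16% of all genes. The higher one was Stat5a, a transcription factor, at 95.0, 60.3 and 69.5 CPM in WT lesions, against 172, 161 and 78.3 CPM in KO lesions, with KO replicate 3 within the WT range (log2 fold change 0.87, SE 0.34, edgeR quasi-likelihood adjusted p = 0.333). Sos2, an exchange factor that activates RAS, was at 48.6, 52.4 and 49.4 CPM in WT lesions, against 31.3, 35.3 and 35.9 CPM in KO lesions (log2 fold change -0.55, SE 0.12, adjusted p = 0.321). Its groups were well apart, and the estimate lay between -0.64 and -0.46 over 15 alternatives, with an unadjusted p under 0.05 in 15 of them. Akt2 and Nras were the other lower genes, with log2 fold changes of -0.56 and -0.35 (SE 0.20 and 0.13, adjusted p = 0.328 and 0.332), and their groups did not overlap either. Over the 29 genes, the groups did not overlap for 1 with KO higher and for 6 with KO lower. The shares of all genes were 10.7% and 8.74%.

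Among the 18 genes that respond to ERK, 5 had higher and 13 lower estimates, with a median of -0.37. With 1 lesion left out the median ran from -0.45 without WT replicate 1 to -0.16 without WT replicate 2. At an unadjusted p under 0.05, 0 were higher and 4 lower, and for these 4 every KO lesion was below the WT range. Over all genes 8.16% were lower at that threshold and 8.74% lay without overlap on that side. Markers of some immune cells, though not of all, were also lower in KO lesions. The 7 markers of T cells and group 2 innate lymphoid cells summed to 23.8, 76.7 and 26.6 CPM in WT lesions, against 9.54, 7.97 and 20.1 CPM in KO lesions, with 5 of the 7 not overlapping. The 5 mast cell markers summed to 28.7, 44.2 and 40.7 CPM in WT lesions, against 26.7, 73.9 and 43.5 CPM in KO lesions. Of these 5, 3 had a higher and 2 a lower mean in KO lesions. All 8 macrophage markers had a lower mean in KO lesions, and their sums of 1171 to 2732 CPM in WT and 542 to 1396 CPM in KO lesions overlapped. The part of immune cells in the ERK response genes was not tested. Fos, a subunit of the AP-1 transcription factor, was at 47.8, 91.5 and 66.7 CPM in WT lesions, against 31.6, 28.8 and 29.8 CPM in KO lesions (log2 fold change -1.19, SE 0.25, edgeR quasi-likelihood adjusted p = 0.321). Egr1, an early response transcription factor, was at 30.2, 45.7 and 34.6 CPM in WT lesions, against 11.6, 15.3 and 24.6 CPM in KO lesions (log2 fold change -1.10, SE 0.32, adjusted p = 0.321). WT replicate 2, the lesion rich in neutrophil transcripts, was the highest for both, and WT replicates 1 and 3 also lay above every KO lesion. The neutrophil sums separated the groups in the same way, but only 3 of the 7 markers did so singly. Retnlg was at 15.6, 242 and 17.3 CPM in WT lesions, against 37.2, 19.3 and 24.9 CPM in KO lesions. It was picked out after its values were seen. The part of neutrophils in Fos and Egr1 was not tested.

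Fosl1, another AP-1 subunit, was at 0.854, 9.86 and 1.62 CPM in WT lesions, against 0.351, 0.278 and 0.625 CPM in KO lesions (log2 fold change -3.29, SE 1.03, edgeR quasi-likelihood adjusted p = 0.328). Its estimate was -1.56 without WT replicate 2. The remaining gene of the 4, Dusp5, a phosphatase of ERK that the naming rule leaves out, was at 8.63, 54.0 and 8.03 CPM in WT lesions, against 5.61 to 6.08 CPM in KO lesions, and its log2 fold change of -2.03 became -0.53 without WT replicate 2.

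**Figure D5:**
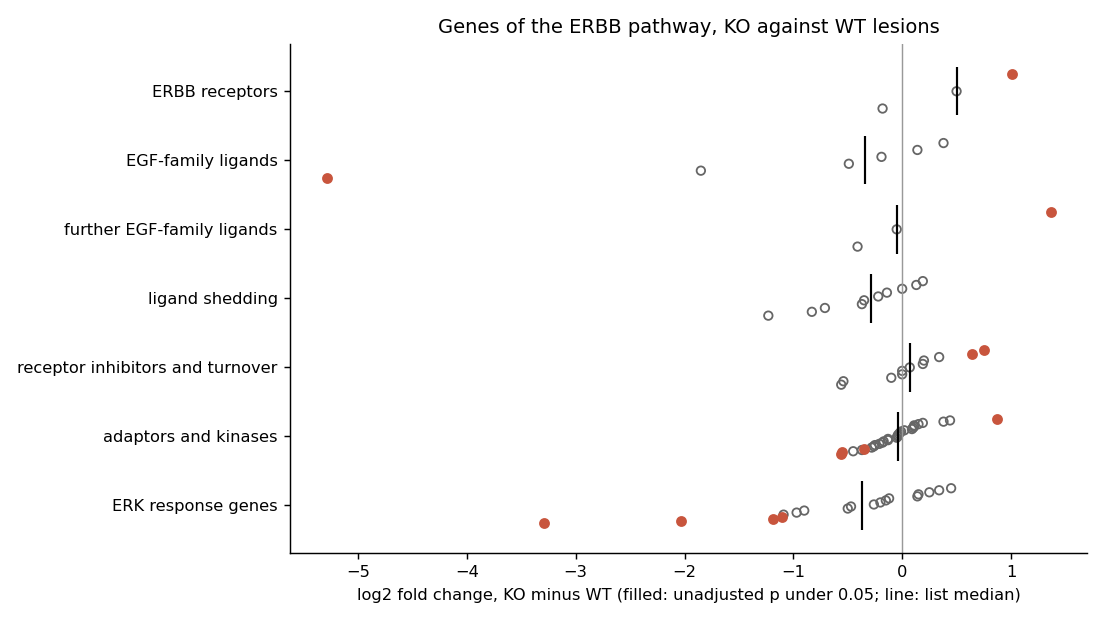
Log2 fold change of KO against WT lesions for the members and for each pathway list, 1 point per tested gene, filled in red where the unadjusted p was under 0.05. The vertical line in each list is its median, which is 0.50 for the receptors and -0.37 for the ERK response genes, and 0 genes had an adjusted p under 0.05.

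The genes whose levels followed a receptor most closely over the 6 lesions were sought among 15045 genes by the root mean square difference of centred log2 CPM. For Egfr they were Palm (0.0513) and S100a13 (0.0787). Palm was at 37.7, 41.8 and 34.0 CPM in WT lesions, against 27.5, 20.9 and 54.2 CPM in KO lesions, high and low in the same lesions as Egfr. For Erbb2 they were Gng12 (0.0638) and Lap3 (0.0701), with Gng12 at 1250, 771 and 1244 CPM in WT lesions, against 3064, 2465 and 1205 CPM in KO lesions. For Erbb3 they were Mycn (0.110) and Ccdc85c (0.116), with Mycn at 29.4, 18.1 and 26.5 CPM in WT lesions, against 42.2, 37.0 and 14.6 CPM in KO lesions. These are descriptions over 6 libraries that share their scaling.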

How the data were processed

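Messenger RNA of 6 ectopic lesions (3 WT, 3 KO) was sequenced as stranded libraries, and the values deposited by the authors are raw counts per gene, as whole numbers without normalization. The study's methods describe trimming and mapping to GRCm38 on the Galaxy platform, whereas the submitters' processing notes name GRCm39, Trimmomatic, featureCounts and DESeq2. The aligner, the annotation release and the strand setting of the counting are not given in the sources used here, so reads of overlapping genes on opposite strands may not be told apart. The 6 per-library files equalled the series table.

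The filterByExpr function of edgeR 4.0.16 (R 4.3.3) kept 18177 of the 56884 genes. After TMM scaling (factors 0.962 to 1.05) a quasi-likelihood model with genotype alone compared the groups, with Benjamini-Hochberg adjustment over all tested genes. SE is the absolute log2 fold change over the root of F. The common biological coefficient of variation was 44.2%. Counting error adds to the spread between lesions, and counts carry no molecular identifiers. CPM carry no prior count, and the nearest patterns used log2 CPM with a prior count of 2 among genes of at least 1 CPM on average. TPM used the union of exons in GENCODE M21, in which 51948 identifiers were found without their version and 35 with the same version. Coordinates of genes are those of GENCODE M21 on GRCm38, and promoter sequences are those of RefSeq on GRCm38.p6. Permutation tests were exact and two-sided.

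The members, the pathway and marker lists and the tests were chosen with earlier results of these data known. Named genes are the members, Dnmt3a, the further ligands, up to 3 genes per direction and pathway list with the smallest unadjusted p under 0.05, 2 nearest genes per receptor and the first 3 genes of a marker list. The alternatives were 2 other scalings (size factors of DESeq2, upper quartile), other filters, DESeq2 1.42.0, voom of limma 3.58.1, the replicate number as a block, each lesion left out and WT replicates 1 and 3 left out together. Halved counts, library totals as the only scaling and the ratios to marker sums with lesions left out were added after seeing the data. The scripts were tested on simulated counts.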

Additional observations from a re-analysis of the deposited data

How the results depend on the processing

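The call that no member passed adjustment held in all alternatives except DESeq2's Wald test and the fit without WT replicate 2, each with 1 member (Egf). Over all genes, DESeq2 called 1100 of 17564 and the fit without WT replicate 2 called 398 of 18923, beside 1 of 18177 in the main fit. With 1 lesion left out the number was 0 to 1. At an unadjusted p under 0.05, members higher in KO lesions numbered 0 to 2 and lower ones 1 to 2 with 1 lesion left out, and 0 and 0 without WT replicates 1 and 3. Pathway genes past adjustment were 4 with DESeq2. At the unadjusted threshold, higher pathway genes numbered 7 with upper quartile scaling, 7 with voom and 0 to 7 with 1 lesion left out, and lower ones 4, 15 and 3 to 14. The numbers over all genes moved too. Of 18177 tested, 1190 were higher and 1484 lower in the main fit. Upper quartile scaling gave 1945 and 1179, and voom 2596 and 2882. With 1 lesion left out, 499 to 2185 genes were higher and 703 to 2366 lower, of 18873 to 19048 tested. With halved counts 0 members passed adjustment. Upper quartile scaling moved the median of all genes from 0.01 to 0.11. Dnmt3a passed only with DESeq2, at a log2 fold change of -0.58 (adjusted p = 0.00685). The sign turned for Egfr (without KO replicate 2), Areg (0.64 with voom; without WT replicate 2, KO replicate 1 or KO replicate 3), Ereg (without WT replicate 2), Tgfa (without WT replicate 1), Nrg1 (0.04 with upper quartile scaling; without KO replicate 2) and Nrg4 (without WT replicate 2 or KO replicate 1). With 1 lesion left out the ranges were -0.67 to 0.05 for Egfr, -1.38 to 0.98 for Areg, -2.41 to 0.78 for Ereg, -0.02 to 0.27 for Tgfa, -0.39 to 0.23 for Nrg1 and -1.43 to 0.75 for Nrg4. The causes were not tested. The number of members whose groups did not overlap, KO lower, was 0 with library totals as the only scaling and 0 with upper quartile scaling. The order of members by TPM changed for 5 of them with the longest transcript as length and for 2 without WT replicate 2.

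The labels do not say whether the replicate numbers pair the samples. Deviations of same-numbered lesions from their group means correlated at 0.0318, -0.152 and -0.201. Differently numbered lesions were not compared, so these values cannot show whether a pairing existed. With the replicate block, 0 members were higher and 0 lower at the unadjusted threshold, as were 2 and 3 pathway genes, and the log2 fold change of Areg was 0.01. Areg, Ereg and Erbb4 rest on counts of 348 or fewer in every lesion, which limits their precision.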
